A study of Mus musculus with 12 samples.

Results

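The stearoyl-CoA desaturases Scd1 and Scd2, the fatty acid desaturase Fads2 and the elongases Elovl5 and Elovl6 were examined in mammary tumors of female MMTV-Neu mice. These 5 genes were chosen by name from the Scd, Fads and Elovl families, wherever either deposited table lists them. Of the 5, 4 (Scd1, Scd2, Fads2 and Elovl6) are in the table of V-125 against control, which lists 1589 genes, and 4 (Scd1, Scd2, Elovl5 and Elovl6) are in the table of bexarotene against control, which lists 1784. Scd1, Scd2 and Elovl6 are in both. The tables together hold 2876 genes, and each stops at an unadjusted p-value of 0.05 for its own comparison, so a listed gene had already been selected on the difference described here, and a gene that is not listed has no value here.

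MMTV-Neu mice carry Neu (Erbb2) under a mouse mammary tumor virus promoter, which is active mainly in mammary epithelium, and every mouse of all 3 groups carried this transgene. Tumor-bearing mice received control diet, V-125 or bexarotene for 10 days, 4 mice a group and 12 in all, with each RXR agonist at 100 mg per kg diet. V-125 and bexarotene both activate the retinoid X receptor (RXR), a nuclear receptor that binds DNA in pairs with partners such as the liver X receptor (LXR) and the peroxisome proliferator-activated receptors. Polyadenylated RNA of whole tumor tissue was sequenced, and per-tumor values were used for the 4 V-125 and 4 control tumors, whose libraries held 15571690 to 22574865 reads counted on genes. For bexarotene the authors' group means were used, which carry no spread. The same 4 control tumors serve both comparisons, so the V-125 and bexarotene differences are not independent of each other.

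Desaturases and elongases act on fatty acids that fatty acid synthase has made or the diet has supplied. Scd enzymes place a double bond at the Δ9 position of saturated acyl-CoAs and so make oleate and palmitoleate, Elovl6 lengthens palmitate to stearate, the preferred substrate of the Scd enzymes, and Fads2 (Δ6 desaturase) and Elovl5 act in turn on essential polyunsaturated fatty acids on the way to arachidonate and docosahexaenoate. Scd1 is a classical target gene of LXR and of the lipogenic factor SREBP-1c in liver and fat, and Scd2 is the form best known from brain and from fetal tissues. In bulk tissue, fewer cells of a type and less RNA per cell cannot be told apart, and this holds for all levels given here.

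The desaturase genes lie in clusters of close relatives on chromosome 19, and this bears on which reads can be given to which gene. In GENCODE on GRCm38, Scd1 spans chr19:44394455-44407879 on the minus strand and Scd2 chr19:44293674-44306864 on the plus strand, with Scd4 between them and Scd3 at chr19:44203269-44244016. Fads2 spans chr19:10062765-10101746 on the minus strand, and its 3′ end lies 2.7 kb from that of Fads3 (chr19:10041569-10060110, plus strand). The elongase genes stand alone, Elovl6 at chr3:129532355-129638495 and Elovl5 at chr9:77917364-77984519, both on the plus strand. The deposited coordinates are identical to GENCODE for Elovl6. For Scd1, Scd2 and Scd3 their ends differ by at most 170 bases, and for Fads3 by at most 439 bases. For Fads2 they differ by up to 1399 bases, so the Fads2 reads were counted on a model that differs from the annotated gene.

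**Figure D1:**
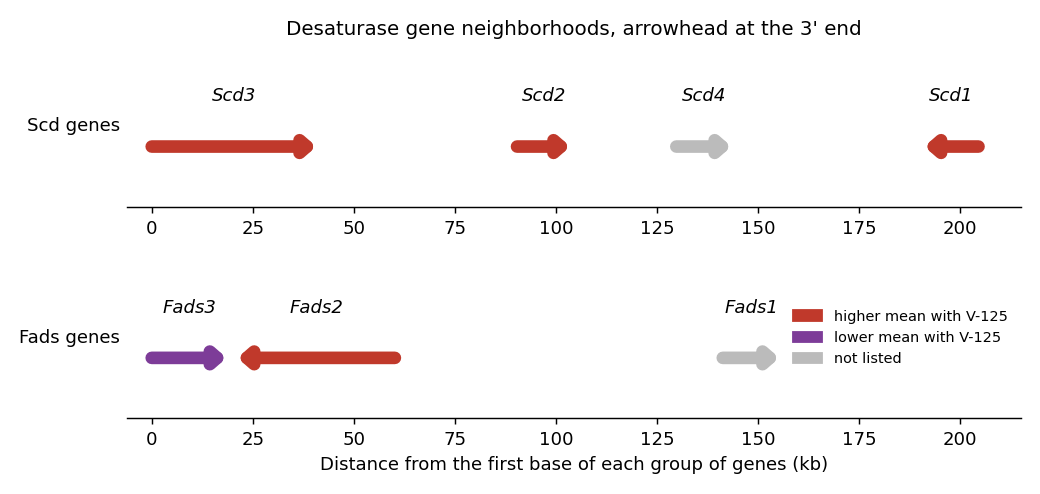
Desaturase gene neighborhoods on chromosome 19 of GRCm38, drawn to scale as distance in kb from the first base of each cluster, with arrowheads at the 3′ ends. Red genes had a higher mean normalized count in V-125 tumors, the purple gene (Fads3) a lower one, and grey genes are not listed in the V-125 table. Scd1 and Scd2 lie at opposite sides of Scd4, and Fads2 and Fads3 point at each other with 2.7 kb between them.

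The coding sequences of Scd1 and Scd2 were 90.3% identical over 1065 aligned bases, and they share a run of 147 identical bases that starts at coding base 523 of Scd1 and 532 of Scd2. A sequence read that falls inside this run carries no base that distinguishes the genes. It is shown for both genes with 15 bases of coding sequence on either side, taken from GENCODE, 5′ to 3′, with the bases that differ in capitals.
Scd1: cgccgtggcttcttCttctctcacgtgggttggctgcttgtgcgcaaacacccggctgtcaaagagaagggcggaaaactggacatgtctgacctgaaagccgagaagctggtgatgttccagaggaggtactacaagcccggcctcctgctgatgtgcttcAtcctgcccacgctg
Scd2: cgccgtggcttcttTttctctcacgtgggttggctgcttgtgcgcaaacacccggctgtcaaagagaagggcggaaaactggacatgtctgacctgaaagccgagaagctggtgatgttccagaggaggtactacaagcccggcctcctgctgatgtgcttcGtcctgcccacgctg
Stretches of this kind made up a small part of the transcript, as 48 of the 4888 windows of 100 bases in the Scd1 transcript (0.98%) also occur in Scd2. Scd1 and Scd3 were closer, with 91.5% identity, a longest identical run of 185 bases and 86 shared windows (1.76%). Fads2 and Fads3 were 69.9% identical and Elovl5 and Elovl6 52.4%, with no shared window of 100 bases. How reads that match several places were handled is not given in the sources used here, so the counts of the Scd genes are uncertain by an unknown amount.

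Promoters of members were read from RefSeq on GRCm38.p6, where Elovl5, Elovl6 and Fads2 had an entry and Scd1 and Scd2 had none. The 250 bases before the transcript start are shown for the elongases, at chr9:77917115-77917364 for Elovl5 and chr3:129532136-129532385 for Elovl6, both plus strand, because the 2 genes differ in which motifs they hold. Capitals mark matches on either strand to the motif CCAAT, which reads ATTGG from the opposite side. They also mark the palindrome CACGTG. The motif GGGCGG was searched for as well. Last, they mark AGGTCA, the half-site of RXR partners, which appears as TGACCT when it lies on the opposite strand. No match overlaps another in these windows.
Elovl5: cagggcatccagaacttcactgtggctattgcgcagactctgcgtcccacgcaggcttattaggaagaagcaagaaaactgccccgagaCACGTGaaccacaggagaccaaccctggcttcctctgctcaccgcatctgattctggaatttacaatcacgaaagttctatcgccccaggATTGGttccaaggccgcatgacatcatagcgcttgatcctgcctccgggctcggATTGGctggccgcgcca
Elovl6: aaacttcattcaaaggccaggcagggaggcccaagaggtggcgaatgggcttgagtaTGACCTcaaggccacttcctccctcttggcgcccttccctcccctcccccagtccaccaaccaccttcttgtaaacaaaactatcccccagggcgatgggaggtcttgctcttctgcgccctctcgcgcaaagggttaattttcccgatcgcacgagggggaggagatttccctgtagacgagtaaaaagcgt
The Elovl5 window held CACGTG at 161 to 156 bases before the start, a motif present in 6.02% of 32851 promoters, and CCAAT at 71 to 67 and at 17 to 13 bases, a motif present in 33.8%. The Elovl6 window held AGGTCA at 193 to 188 bases before the start, as did 14% of promoters somewhere in the window. In the Fads2 window the only match was GGGCGG, which 32.7% of promoters hold. Repeats of AGGTCA with 1 base or 4 bases between, the arrangements known for RXR with peroxisome proliferator-activated receptors and with LXR, were in 0.0335% and 0.0152% of promoters and in none of these 3 windows, nor was the sterol-response motif TCACCCCAC (0.496%). These letters describe the windows and were not tested for binding.

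Levels of the genes, compared per length as FPKM (fragments per kilobase of gene, scaled to the reads counted in each tumor), followed the same order in each of the 8 tumors, with Scd1 highest, then Scd2, Fads2 and Elovl6. Scd1 reached 1809 ± 556 FPKM in V-125 tumors and 515 ± 378 in control tumors (SD, n = 4 each). Scd2 stood at 230 ± 81.5 and 108 ± 35.6 FPKM, Fads2 at 71.4 ± 15.9 and 41.0 ± 25.2 FPKM, and Elovl6 at 14.7 ± 2.18 and 6.04 ± 3.06 FPKM. Among the genes of the V-125 table Scd1 ranked 1 by mean normalized count in V-125 tumors and 9 in control tumors. The order of these 4 levels was therefore the same with and without treatment, although the distance between neighboring genes was not, as the ratios below show. With the relatives Scd3 and Fads3 included the order differed between tumors. Fads3 stood above Elovl6 in control tumors 1 and 2 and above Scd3 in control tumor 4. It was last in control tumor 3 and in every V-125 tumor.

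**Figure D2:**
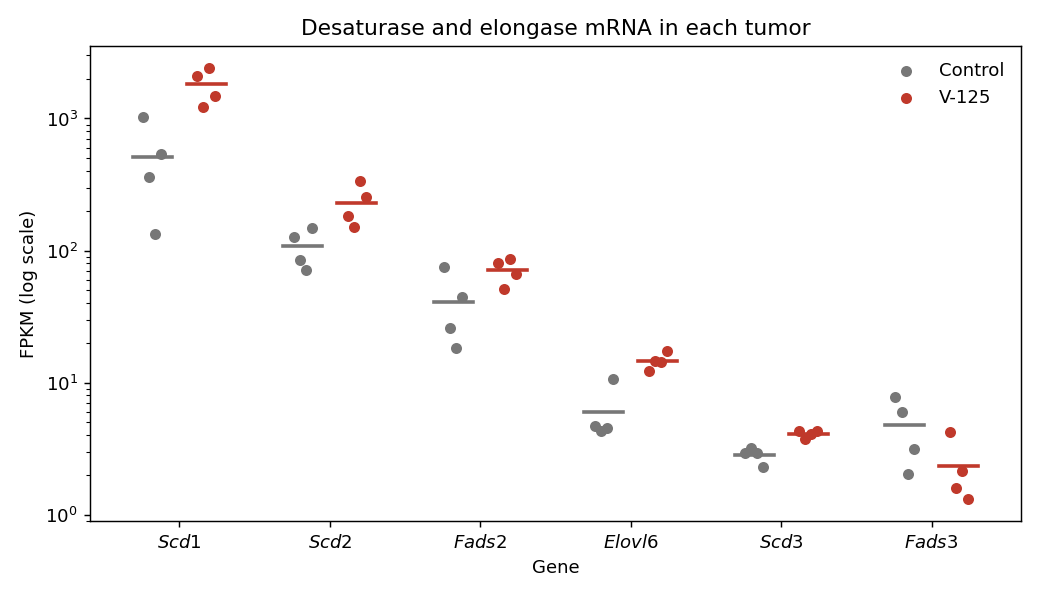
FPKM (log scale) of the 4 members with per-tumor values and of the relatives Scd3 and Fads3, with 1 point per tumor and a bar at the mean of each group of 4. Control tumors are grey and V-125 tumors red. For Scd1, Scd2, Elovl6 and Scd3 every V-125 tumor lies above every control tumor, whereas the groups overlap for Fads2 and Fads3.

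Whether V-125 changed these mRNAs was asked in the 8 tumors, with normalized counts (read counts divided by a size factor per tumor) and with edgeR on the raw counts. Elovl6 was the only one of the 4 members called higher in V-125 tumors at an adjusted p under 0.05 in edgeR, while 120 of the 1333 listed genes tested, or 9.00%, were called in either direction and 5.10% were called higher. Scd1, Scd2 and Elovl6, but not Fads2, had every V-125 tumor above every control tumor, as had 21.1% of the 1589 listed genes (38.6% had groups without overlap in either direction). The median log2 fold change was 1.19 for the 4 members and 0.36 over all tested genes. It was 0.95 over the 6 listed genes of the families, with Scd3 and Fads3 included. The genes tested are those the table lists, so these shares describe a list already selected on the comparison. Adjusted over the 15310 tests recovered from the table in place of the 1333, edgeR called 0 genes, although 953 had an unadjusted p under 0.05, and the adjusted p of Elovl6 was then 0.456.

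Scd1, the main Δ9 desaturase of lipogenic tissue, had normalized counts of 181716, 107313, 212914 and 128970 in V-125 tumors 1 to 4 and of 88995, 31481, 11716 and 47011 in control tumors 1 to 4. The groups did not overlap, the lowest V-125 tumor standing 1.21-fold above the highest control tumor, and the control tumors themselves spanned a 7.6-fold range against 1.98-fold in V-125 tumors. In reads, Scd1 took 1.176% of all reads counted on genes in V-125 tumor 3 (95% Clopper-Pearson interval 1.171% to 1.18%, covering counting error only) and 0.06498% in control tumor 3 (0.06394% to 0.06604%). The log2 fold change was 1.82 (SE 0.53, 95% interval 0.63 to 3.00), and its adjusted p of 0.053 in edgeR missed the threshold. Leaving out control tumor 3, which had the lowest Scd1 level, gave 1.5 with an adjusted p of 0.0434, and leaving out control tumor 1, which had the highest, gave 2.39 with 0.0488. Any other tumor left out on its own gave an adjusted p between 0.0643 and 0.102 in edgeR, farther above the threshold than with all 8 tumors. A two-sided exact permutation test of the difference between the groups gave p = 0.0286, the smallest that the 70 assignments of 8 tumors allow.

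Scd2, the second Δ9 desaturase, had 17778, 15006, 33084 and 24841 normalized counts in V-125 tumors 1 to 4 and 12423, 8331, 6992 and 14523 in control tumors 1 to 4. The groups nearly touched, with V-125 tumor 2 at 1.03 times the level of control tumor 4. Its log2 fold change was 1.10 (SE 0.31, 95% interval 0.41 to 1.79) with an adjusted p of 0.051 in edgeR, just above the threshold, and the exact permutation test gave p = 0.0286. Over the 3 Scd genes with per-tumor values, Scd1 made up 85.2% to 91.8% of the summed FPKM in V-125 tumors and 64.5% to 88.8% in control tumors. Control tumor 3, in which Scd1 was lowest, had the largest Scd2 share, 34.1%.

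Elovl6, the elongase that supplies stearate to the Scd enzymes, had 1402, 1704, 1684 and 2032 normalized counts in V-125 tumors 1 to 4 and 541, 503, 525 and 1235 in control tumors 1 to 4. Control tumors 1 to 3 lay close together and control tumor 4 stood apart, near the lowest V-125 tumor. The log2 fold change was 1.28 (SE 0.30, 95% interval 0.61 to 1.96, adjusted p 0.0397 in edgeR), and the exact permutation test gave p = 0.0286. Without control tumor 4 it was 1.71 with an adjusted p of 0.00924, and without V-125 tumor 2, 3 or 4 or control tumor 1 or 2, each left out on its own, the adjusted p lay between 0.0545 and 0.0912.

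Fads2, the Δ6 desaturase of the polyunsaturated pathway, had 2182, 1405, 2374 and 1802 normalized counts in V-125 tumors 1 to 4 and 2031, 705, 502 and 1210 in control tumors 1 to 4. Control tumor 1 lay within the V-125 range, so the groups overlapped. The log2 fold change of 0.80 (SE 0.39, 95% interval -0.07 to 1.67) had an adjusted p of 0.0756 in edgeR, and the exact permutation test gave p = 0.0857. Without control tumor 1 the log2 fold change was 1.27, with an adjusted p of 0.0517. Any other tumor left out on its own gave an adjusted p between 0.0962 and 0.166 in edgeR.

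**Figure D3:**
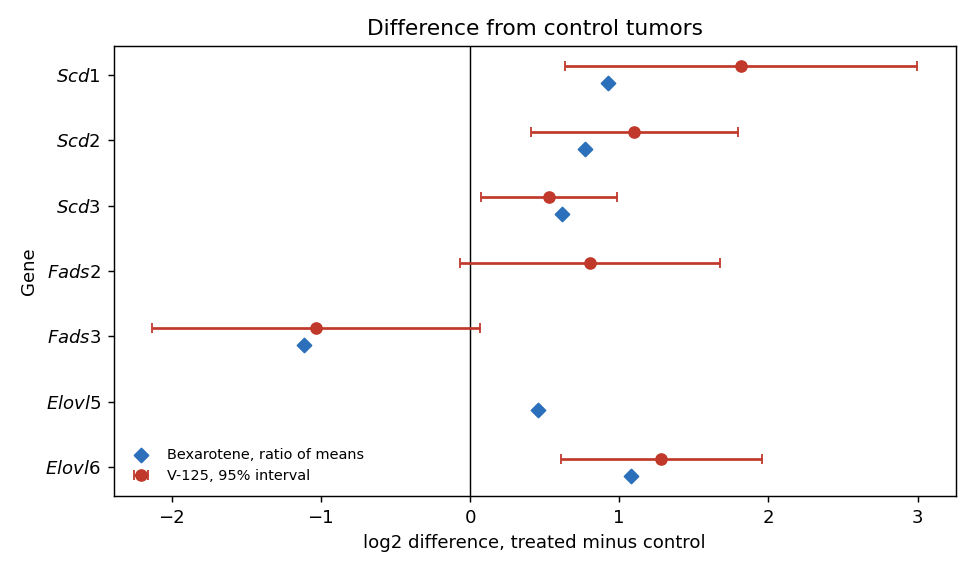
Difference from control on a log2 scale for each Scd, Fads and Elovl gene that either table lists. Red points with bars are edgeR log2 fold changes of V-125 against control with 95% intervals (4 tumors each), and blue diamonds are log2 ratios of the authors' bexarotene and control means, which have no interval. Scd1 has the largest value with V-125 (1.82) and Elovl6 the largest with bexarotene (1.08), and Fads3 is negative with both.

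Ratios between members within a tumor were compared next. The difference of such a ratio between groups is the difference of the genes' own log2 changes, on which both were listed, so it is not independent of that selection. For each of the 6 pairs of members the FPKM ratio was taken in every tumor, where depth and size factor cancel. The Scd1 to Fads2 ratio was 26, 23.8, 28.0 and 22.3 in V-125 tumors 1 to 4 and 13.7, 13.9, 7.28 and 12.1 in control tumors 1 to 4. Scd1 thus stood higher over Fads2 in every V-125 tumor than in any control tumor, with geometric means of 24.9 and 11.4, a difference of 1.13 on the log2 scale. The two-sided exact permutation test gave p = 0.0286, and 0.171 after Benjamini-Hochberg adjustment over the 6 pairs, of which this was the only one without overlap. With 4 tumors a group the adjusted value can pass 0.05 only if at least 4 of the 6 pairs separate completely.

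The other 5 ratios overlapped between the groups. Scd1 to Scd2 ran from 5.85 to 11.5 in V-125 tumors and from 1.89 to 8.08 in control tumors (exact permutation p = 0.114, adjusted 0.343). Scd2 to Fads2 was nearly the same in both, with geometric means of 3.1 and 2.9 and a log2 difference of 0.12 (exact permutation p = 0.714). Ratios to Elovl6 differed on the log2 scale by 0.73 for Scd1, by -0.29 for Scd2 and by -0.41 for Fads2, with exact permutation p-values between 0.314 and 0.514. Scd1 to Elovl6 spanned 29.7 to 219 in control tumors alone.

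**Figure D4:**
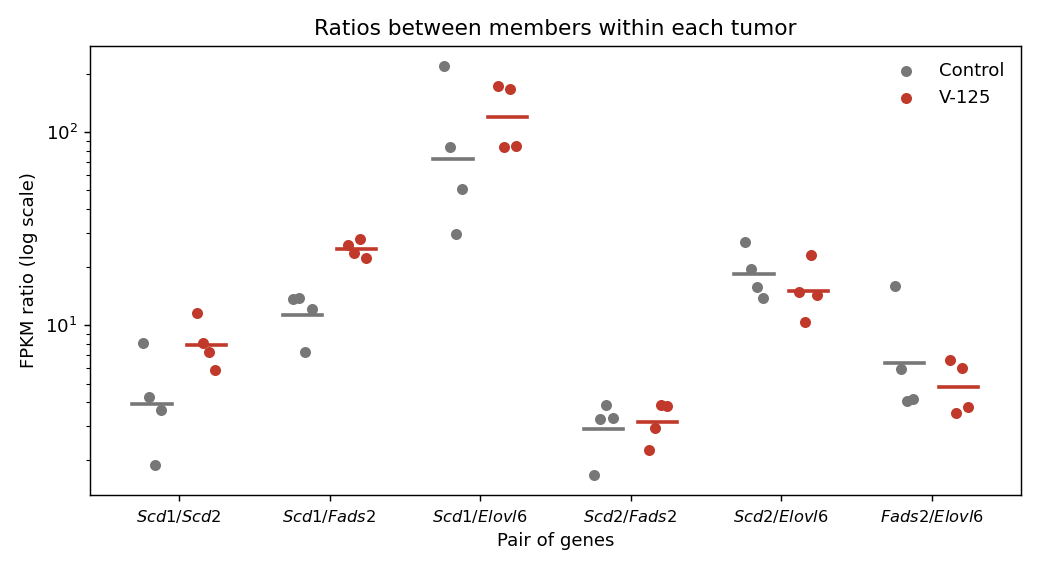
FPKM ratio (log scale) of each of the 6 pairs of members in every tumor, with control tumors in grey, V-125 tumors in red and bars at the geometric mean of 4 tumors. The Scd1 to Fads2 ratio is the only one whose groups do not overlap (22.3 to 28.0 with V-125 and 7.28 to 13.9 in control tumors).

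Scd1 and Fads2 also varied together from tumor to tumor within each group. Both genes ranked the V-125 tumors in the order 3, 1, 4, 2 and the control tumors in the order 1, 4, 2, 3. After each group's mean was subtracted from log2(normalized count + 1), Pearson's r over the 8 tumors was 0.97 and Spearman's rho 0.90, with p = 0.00521 and 0.00347 by exact permutation within groups (576 arrangements) and 0.0312 and 0.0208 after adjustment over the 6 pairs. Without control tumors 1 and 3, the tumors farthest from the median of Scd1, r was 0.92. This test was chosen after the values were seen, and the genes share the size factor of each tumor.

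**Figure D5:**
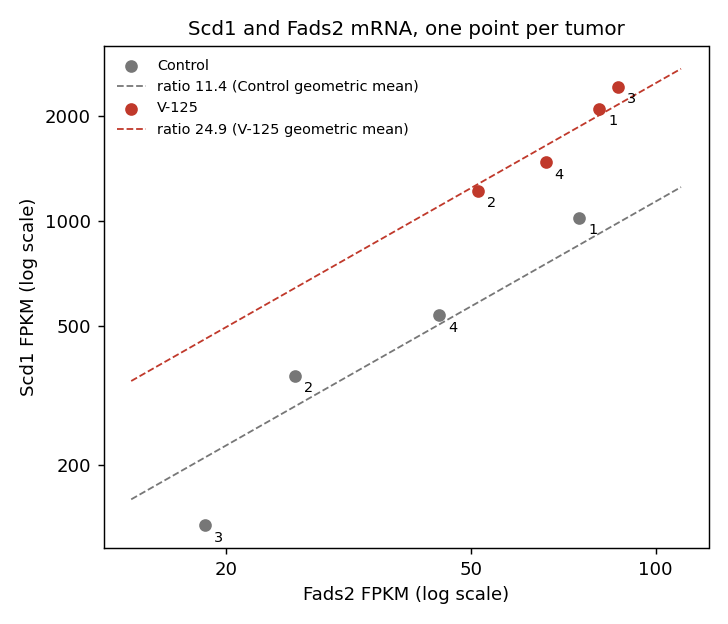
Scd1 against Fads2 FPKM in each tumor, both on log scales, with replicate numbers beside the points and control tumors in grey and V-125 tumors in red. Dashed lines mark a constant ratio at the geometric mean of each group (24.9 with V-125, 11.4 in control tumors), and the V-125 points lie along the upper line.

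Elovl6 did not share this order. Its r was 0.17 with Scd1 (exact permutation p = 0.691), 0.21 with Fads2 (0.845) and 0.57 with Scd2 (0.156), and Scd2 stood between, with an r of 0.70 to Scd1 (exact permutation p = 0.059, adjusted 0.122) and of 0.73 to Fads2 (0.0608, adjusted 0.122). Of the 997 other genes of the table with a mean normalized count of at least 100, those most like each member within groups were searched, as a description over 8 tumors with no test. Next to Fads2, Scd1 was most like Bhlhe40, a transcription factor of the circadian and hypoxia responses (r = 0.962, rho = 0.905), and Bhlhe40 was also second for Fads2 (r = 0.938), while its own log2 fold change with V-125 was -0.61. Scd2 was most like Sox6 (0.827) and Mark3 (0.80), and Elovl6 most like Gm6542 (0.963) and Jade1 (0.936).

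Bexarotene at the same dose and duration was compared through the authors' means, with no test. All 4 members in its table had a higher mean than the control, as had 43.3% of the 1784 listed genes. With the relatives Scd3 and Fads3 included it was 5 of 6, as Fads3 had a lower mean. Elovl6 averaged 1472 normalized counts against 695.9 in control tumors, a ratio of 2.12, beside 2.43 for V-125. Scd1 averaged 84410 against 44558, a ratio of 1.89 beside 3.52 for V-125, and Scd2 17949 against 10501, a ratio of 1.71 beside 2.15. The ratio for each of these genes was thus smaller with bexarotene than with V-125, most of all for Scd1, and whether the agonists differ was not tested, because no spread between bexarotene tumors was at hand. The bexarotene mean of Scd1 lies below the lowest V-125 tumor (107313) and within the range of the control tumors, below control tumor 1 (88995). Those of Scd2 and Elovl6 lie within the range of the V-125 tumors (15006 to 33084 and 1402 to 2032). Both also lie above the highest control tumor (14523 and 1235). Scd1 ranked 1 by bexarotene mean among the genes listed for bexarotene. Of the relatives, Scd3 had ratios of 1.54 with bexarotene and 1.44 with V-125, and Fads3 0.462 and 0.488.

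Elovl5, which lengthens the products of Fads2, is listed for bexarotene alone, with a mean of 3083 normalized counts against 2249 in control tumors, a ratio of 1.37. Fads2, its partner in the pathway, is listed for V-125 alone. Being listed in 1 table and not in the other does not show a difference between the agonists.

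Of the 15 Scd, Fads and Elovl genes annotated in the mouse, 7 are in either table, the 5 members and their relatives Scd3 and Fads3. Scd3, a Δ9 desaturase known mainly from skin, had 266.7, 234.6, 255.2 and 267.5 normalized counts in V-125 tumors 1 to 4 and 183.3, 200.0, 182.1 and 144.3 in control tumors 1 to 4. These groups did not overlap, although the level was far below that of Scd1 and the adjusted p was 0.0666 in edgeR. Fads3, an enzyme that desaturates sphingoid bases, went the other way from its neighbor Fads2, with 249.3, 94.0, 126.1 and 77.2 normalized counts in V-125 tumors 1 to 4 and 458.8, 354.9, 119.0 and 186.9 in control tumors 1 to 4. The Fads3 groups overlapped and its log2 fold change of -1.03 had an adjusted p of 0.0744 in edgeR. With bexarotene the mean of Scd3 was 270.9 against 176.5 and that of Fads3 128.6 against 278.5.

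Genes at the neighboring steps of the pathway were counted from lists of names, with the 9.00% called over the table as the measure. Of 10 genes grouped by name under palmitate supply, not all of which need act in it directly, 6 are listed for V-125. Of the 6 tested 3 were called, all higher, at adjusted p-values of 0.0397 each in edgeR (0.456 each over the 15310 recovered tests). They were Acaca (log2 fold change 0.99) and Acacb (1.39), the acetyl-CoA carboxylases, and Fasn (1.08), fatty acid synthase. Acly, which makes cytosolic acetyl-CoA, had 0.72 with an adjusted p of 0.0502 in edgeR, Acss2 had 0.74, and Mcat, the malonyl transferase of mitochondrial fatty acid synthesis, had -0.37. Fasn was also the only gene of this group listed for bexarotene, with a mean of 14129 normalized counts against 8773.

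Of 10 genes that activate fatty acids to acyl-CoA, 3 are listed for V-125. Acsl3, a long-chain acyl-CoA synthetase of lipid droplets and the endoplasmic reticulum, was called higher (log2 fold change 1.33, adjusted p 0.0386 in edgeR), Slc27a4 had 0.38 and Slc27a3 had -0.96. Acsl3 had a mean of 1004 against 435.4 normalized counts with bexarotene. Among 18 genes that place fatty acids in lipids, 4 are listed for V-125 and 2 were called higher, Gpam (0.88, adjusted p 0.0457), which starts glycerolipid synthesis, and Lpcat3 (0.59, adjusted p 0.0458), which puts polyunsaturated chains into phospholipids. Lpin1 (0.63) and Gpat3 (1.78) were not called. Gpat3 had few reads, at 5.3 to 63.4 normalized counts in V-125 tumors against 4.8 to 10.4 in control tumors, and its groups overlapped. For bexarotene Lpcat3, Gpam and Dgat2 are listed, with means of 1643, 444.7 and 251.6 normalized counts against 1199, 287.8 and 161.6.

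Partners that share the enzymatic cycle with the members were counted in the same way. Of 6 genes of the elongation cycle beside the Elovl genes, Hacd1, a dehydratase best known from muscle, is listed for V-125 and was called lower (log2 fold change -1.40, adjusted p 0.0436 in edgeR), with 22.5 to 44.7 normalized counts against 68.0 or more in control tumors. Tecr, the reductase of the last step, is listed for bexarotene alone (7555 against 5744). Another 6 genes were grouped by name under electron supply to desaturases, and not all of them need act in it directly. Of these 6, Cyb5b alone is listed for V-125 (0.50, not called) and none for bexarotene. Among genes that shorten or oxidize chains, Hsd17b4 (0.37) and Cpt1a (0.72) had higher means with V-125 and were not called, and Cpt1a had 982.2 against 619.2 with bexarotene. Of 8 other desaturases and hydroxylases, Msmo1, of cholesterol synthesis, is listed for V-125 (0.80, not called), and Msmo1 and Sc5d had higher and Ch25h a lower mean with bexarotene. None of 8 genes that use arachidonate is listed for V-125, and Ptgs1 had a lower mean with bexarotene (162.8 against 304.5).

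Markers of the cells a mammary tumor can hold were counted from lists of names too. A listed marker was selected on its difference between these groups, so that it differs was given in advance, and most markers are not listed. For scale, 38.6% of the genes listed for V-125 had groups without overlap, and 43.3% of those listed for bexarotene had a higher mean than the control. Epithelial markers were present, as the tissue label requires, and Epcam had 28485 normalized counts or more in every tumor and Cdh1 4565 or more. Of 13 adipocyte genes, which matter here because fat is rich in Scd1, Lipe alone is listed for V-125, at 453.7 to 608.0 normalized counts against 247.9 to 400.1 in control tumors, and Plin4 (52.4 against 11.3) and Fabp4 (530.2 against 157.3) had higher means with bexarotene. Of 9 milk genes, Csn1s1 and Wap are listed for V-125, at a summed 11075 to 231459 normalized counts against 248379 to 504631. Csn1s1 makes up almost all of this sum, and the groups overlapped for Wap, at 45.5 to 142.5 against 33.3 to 783.8. For bexarotene 4 milk genes are listed, all with lower means, at ratios to control of 0.284 for Csn1s2a, 0.2 for Csn2, 0.132 for Wap and 0.429 for Btn1a1. The 4 of 9 luminal genes listed for V-125 summed to 45766 to 55273 against 57836 to 81627. This sum is mostly Epcam, and the genes did not go 1 way, as Epcam, Cdh1 and Kit had lower means with V-125 (log2 fold changes of -0.40, -0.40 and -0.45) and Prlr, the prolactin receptor, a higher one (0.40), none of them called. With bexarotene Krt8, Krt18 and Kit had lower means (ratios of 0.723, 0.68 and 0.686) and Prlr a higher one (1.44). The 2 of 6 basal genes listed for V-125 summed to 97.3 to 609.1 against 524.7 to 1032, with Trp63 at 0 in 1 V-125 tumor, and with bexarotene Krt17 had a lower mean (0.27 against 13.1 normalized counts) and Myh11 a higher one (113.4 against 39.4). Of 12 leukocyte genes Itgam alone is listed for V-125, at 30.7 to 60.6 against 65.5 to 89.0 normalized counts, and 4 are listed for bexarotene, all with lower means, at ratios of 0.633 for Cd68, 0.563 for Csf1r, 0.435 for Itgam and 0.298 for Itgax. Kdr, the only one of 5 endothelial genes listed for V-125, had 538.5 to 834.9 against 251.3 to 497.7, and none is listed for bexarotene. No fibroblast or keratinocyte marker is listed for either comparison. The part of these cell types in the desaturase and elongase levels was not tested.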

How the data were processed

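RNA of 12 tumors was grouped by the labels' treatment, 4 a group. Per the labels' processing notes, STAR 2.6.1d, featureCounts 1.5.0-p3 and limma were used; the build is not given in the sources used here. The authors deposited raw counts, normalized counts (a signal, count divided by a size factor per tumor) and FPKM per tumor for V-125 and control, and group means of normalized counts for both comparisons. Their fold changes (log2), p-values, adjusted p-values, a −log10 column and a rescaled fold-change score were deposited by the authors too; only the p-values were read, to find where each list stops and how many tests the adjustment used.

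The members and lists were chosen with earlier results of these data known. The text names all members, relatives and listed genes of the lists, apart from an item not reported here, and the 2 genes most like each member. Counts were tested with edgeR 4.0.16 (quasi-likelihood, filterByExpr, the authors' size factors, Benjamini-Hochberg over the genes tested). Exact permutation tests used log2(normalized count + 1) or log2 FPKM ratios; the pseudocount of 1 understates changes of low genes. DESeq2 1.42.0, limma-voom 3.58.1, other scalings, no filter, a replicate block and leaving out tumors were alternatives. On simulated 4-fold changes in 1366 genes edgeR recovered 197 of 198 with 6 false calls. The simulation gave every gene the same dispersion and changed genes picked at random. It checks that the test runs correctly and does not give its power in these tumors, where spread differs between genes. Tumors of a group are separate mice, but equal replicate numbers mark no shared animal: deviations of same-numbered tumors correlated at -0.28 to 0.24.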

Additional observations from a re-analysis of the deposited data

Results flagged for a closer look

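Among 24 groups of 4 tumors tested for a tumor far from the others (6 genes and 6 ratios in 2 groups), 2 were marked, and about 1 in 20 is marked by chance. Elovl6 in control tumors was marked because control tumor 4, at 1235 normalized counts, stood apart from the other 3, which lay between 503 and 541. The Fads2 to Elovl6 FPKM ratio in control tumors was marked because control tumor 1, at 16.0, stood apart from the others at 4.08 to 5.98.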

How the results depend on the processing

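All 4 members kept a positive log2 fold change in all 14 alternative fits, with ranges of 1.5 to 2.39 for Scd1, 0.86 to 1.29 for Scd2, 0.56 to 1.27 for Fads2 and 1.15 to 1.71 for Elovl6. For Scd1, Scd2 and Elovl6 it depended on the fit whether the adjusted p fell under 0.05. For Fads2 it stayed above 0.05 in every fit. The number of members called at an adjusted p under 0.05, 1 of 4 in edgeR, was 3 with DESeq2 and 3 with limma-voom (Scd1, Scd2 and Elovl6 in both), 0 when adjusted over all 15310 recovered tests (2 with DESeq2), and 0 to 2 when a tumor was left out, with 0 without V-125 tumor 2, 3 or 4 or control tumor 2, and 2 (Scd1 and Elovl6) without control tumor 3. Without control tumor 1 the called member was Scd1. The 120 listed genes called became 990 with DESeq2, 66 with an absolute log2 fold change above 1 as well, 0 over all recovered tests in edgeR, and 0 to 237 when a tumor was left out: 0 without V-125 tumor 2 or 4 or control tumor 2, when 626 to 712 had an unadjusted p under 0.05, 1 without control tumor 4, 29 without control tumor 1 and 237 without control tumor 3. The cause was not tested. With a replicate block 19 listed genes and 1 member (Elovl6, adjusted p 0.0365 in edgeR) were called, and the numbers share no animal; 2 of 8 tumors correlated best with the tumor of their own number. Sign flips within replicate numbers cannot go below an exact p of 0.125. No member pair passed the threshold under any alternative, members without overlap and bexarotene members higher stayed within 1.5 times of their counts, and with Scd3 and Fads3, added after the values were seen, 1 gene was called. Library totals, TMM and no filter on low counts left 1 member called. Depth limits Scd3 and Fads3 most, at 73 to 398 reads.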

Other observations

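The neighbors Fads2 and Fads3 were compared within each tumor, a choice made after their values were seen. The Fads2 to Fads3 FPKM ratio was 19, 32.4, 40.8 and 50.6 in V-125 tumors 1 to 4 and 9.60, 4.31, 9.14 and 14 in control tumors 1 to 4. Every V-125 tumor lay above every control tumor (log2 difference 1.98, two-sided exact permutation p = 0.0286, the smallest 70 assignments allow), although neither gene separated the groups on its own. Both genes are in the table because of their own difference between the same tumors, in opposite directions, so the ratio is not independent of that selection.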
